A study of Mus musculus with 6 samples.

Results

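The genes described here make and transport the lipids of the epidermal water barrier. They are 10 genes chosen by name, Alox12b, Aloxe3, Abca12, Cyp4f39, Pnpla1, Cers3, Elovl4, Abhd5, Sdr9c7 and Aldh3b2, of 26644 genes listed in the deposited tables. RNA was sequenced from mouse skin during wound healing at stages called early, middle and late, treated with C-PC (phycocyanin, a blue light-harvesting protein of Spirulina) or left untreated as a control. The 6 groups are C-PC early, control early, C-PC middle, control middle, C-PC late and control late, and each holds 1 library. The sources used here give no strain, age, genotype, wound model or dose. The members were named with earlier results of these libraries known, so their levels and ratios are given as a description, and no test of them is read as a result.

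The outermost layer of the epidermis is sealed by ceramides that carry an unusually long fatty acid. ELOVL4 lengthens that fatty acid, a CYP4F enzyme adds a hydroxyl group to its far end, and CERS3 joins it to a sphingoid base. PNPLA1, helped by ABHD5, attaches linoleic acid to the hydroxyl, and ABCA12 loads the lipid into lamellar bodies, the vesicles that granular keratinocytes secrete. ALOX12B and ALOXE3 then oxidise the linoleate in turn, and SDR9C7 dehydrogenates the product before the lipid is bound to the protein envelope of the dead cells. The genes lie on chromosomes 1 (Abca12), 7 (Cers3), 9 (Elovl4 and Abhd5), 10 (Sdr9c7), 11 (Alox12b and Aloxe3), 17 (Cyp4f39 and Pnpla1) and 19 (Aldh3b2). In humans, loss of most of these genes causes ichthyosis, a scaling of the skin with a leaking barrier.

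The libraries held between 15863637 and 18028674 reads on genes, and markers of keratinocytes were abundant in 2 of them. A list of 10 markers of the granular layer, where barrier lipids are made, summed to 103 CPM (recovered reads scaled to equal library totals) in C-PC early and 75.9 CPM in control early. It summed to 1.69 CPM in C-PC middle and 340 CPM in control middle, and to 1214 CPM in C-PC late and 0.927 CPM in control late. All 10 granular markers had reads in control middle and in C-PC late, against 4 in C-PC middle and 4 in control late. The early sums were mostly Asprv1, at 94.1 CPM with C-PC and 66.3 CPM in the control, while Flg, Flg2, Hrnr and Kprp were not listed early (genes named after their values were seen). The basal keratins Krt14 and Krt5 had 0 reads in C-PC middle and in control early, and Krt5 had 0 reads in control late. Basal markers summed to 27.5 CPM in C-PC early, 21.2 in control early, 27.2 in C-PC middle and 44.4 in control late. They summed to 1359 CPM in control middle and 2999 CPM in C-PC late. Suprabasal markers summed to 8.67, 5.10, 5.00 and 5.99 CPM in the same order, and to 1135 CPM in control middle and 2203 CPM in C-PC late. Skeletal muscle markers summed to 106130 CPM in C-PC middle and 102955 CPM in control late, and lay between 1207 and 8643 CPM in the other libraries. Hair follicle markers summed to 41088 CPM in C-PC late and to 68.9 CPM in control middle. Both early libraries thus held few reads of basal and suprabasal markers, and the early ratios have to be read with this. The libraries labelled C-PC middle and control late likewise held few reads of epidermal markers, although labelled as skin, and were rich in muscle markers. Whether they differ from the others in dissection or in label was not tested, and each middle and late ratio has to be read with this. The middle and the late comparison each rest on 1 of them, and without them neither comparison can be made. In bulk tissue, fewer cells of a type and less RNA per cell cannot be told apart.

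**Figure D1:**
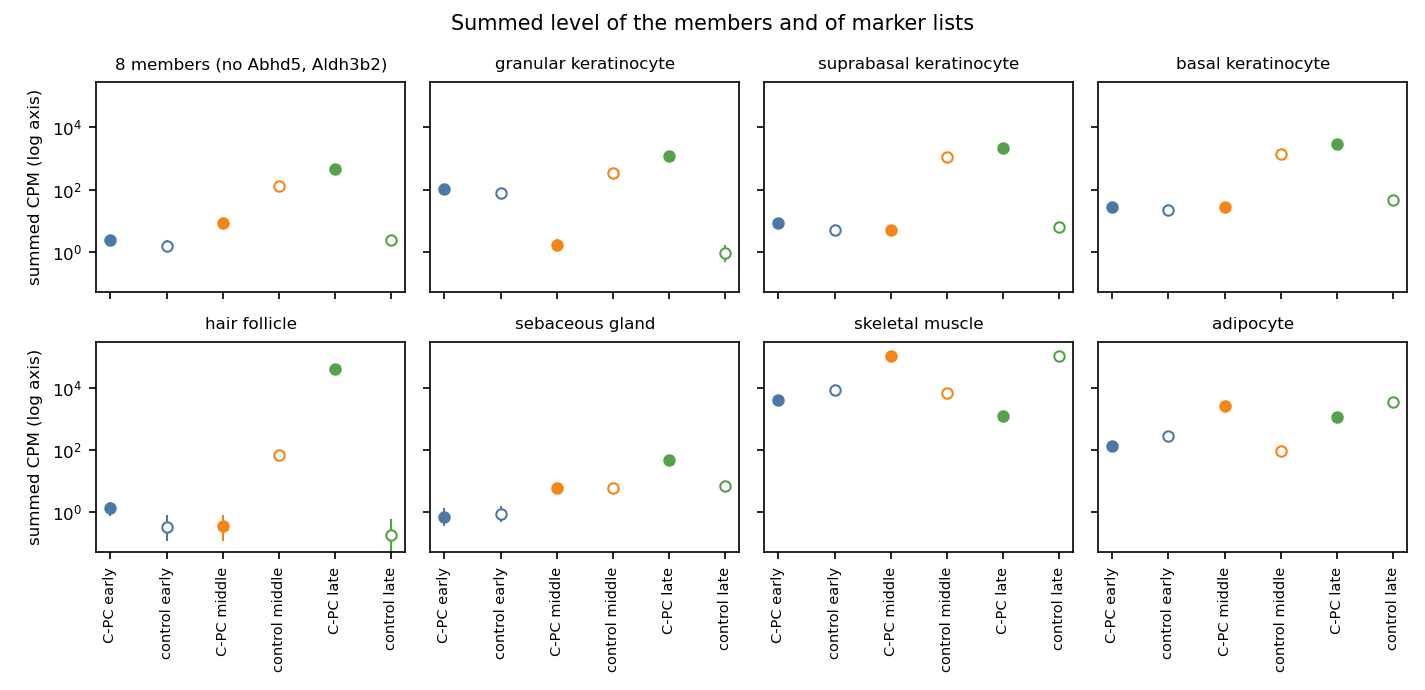
Summed CPM (log axis) of 8 members, without Abhd5 and Aldh3b2, and of 7 marker lists in the 6 libraries; filled points are C-PC, open points control, and bars are exact 95% Poisson intervals. The 8 members stood at 466 CPM in C-PC late and 125 CPM in control middle, and at 8.67 CPM or less in the other libraries.

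Promoters of 3 members are shown because their levels differ in kind: Pnpla1 was far higher in C-PC late than in control middle, Alox12b was lower, and Sdr9c7 had reads in these alone of the 4 libraries that list it. Each runs from 250 bases before to 50 bases after the RefSeq gene start on GRCm38.p6, read 5′ to 3′ on the gene's strand. The Pnpla1 promoter lies at chr17:28858161-28858460 (plus strand), that of Alox12b at chr11:69156822-69157121 (plus) and that of Sdr9c7 at chr10:127898285-127898584 (plus). Capitals mark matches to the motifs searched.
Pnpla1: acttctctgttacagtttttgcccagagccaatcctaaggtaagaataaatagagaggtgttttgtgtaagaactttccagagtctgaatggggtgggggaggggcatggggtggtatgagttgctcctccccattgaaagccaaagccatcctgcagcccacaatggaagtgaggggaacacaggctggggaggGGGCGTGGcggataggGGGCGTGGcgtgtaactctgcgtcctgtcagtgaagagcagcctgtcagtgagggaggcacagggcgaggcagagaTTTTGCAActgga
Alox12b: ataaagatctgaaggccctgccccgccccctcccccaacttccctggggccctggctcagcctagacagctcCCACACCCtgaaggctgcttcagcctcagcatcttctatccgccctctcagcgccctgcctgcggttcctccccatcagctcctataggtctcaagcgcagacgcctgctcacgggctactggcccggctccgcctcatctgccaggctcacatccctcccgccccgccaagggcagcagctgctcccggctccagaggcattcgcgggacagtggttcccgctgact
Sdr9c7: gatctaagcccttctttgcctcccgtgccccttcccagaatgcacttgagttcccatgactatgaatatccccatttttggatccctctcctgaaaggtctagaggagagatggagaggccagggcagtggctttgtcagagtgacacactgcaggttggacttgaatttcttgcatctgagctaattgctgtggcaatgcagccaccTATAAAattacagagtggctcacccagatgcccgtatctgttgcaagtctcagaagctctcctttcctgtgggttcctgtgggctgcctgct

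RefSeq entries were at hand for 8 of the 10 members, and motifs were searched on both strands. GGGCGTGG, a Klf-type box, occurred in the promoters of Pnpla1, with 2 copies at 55 and 39 bases before the start, and of Cyp4f39, 2 of 8 members against 5.33% of 32851 promoters. GGGTGTGG occurred in Alox12b, against 3.56% of promoters. TATAAA occurred in Sdr9c7, 42 bases before the start, against 13.6%, and TTGCNNAA, a C/EBP-type motif, in Pnpla1, against 10.8%. The AP-1 motif TGANTCA, present in 7.81% of promoters, and the Grhl motif AACCNGTT, whose reverse complement is AACNGGTT, present in 2.09%, had no match in the 8 windows. GC content of the 8 ranged between 50.7% and 71.0% around a median of 56.3%, against a median of 52.7% for all promoters. The Cyp4f39 window starts from a RefSeq start 15739 bases upstream of the gene start in the deposited tables, whereas the windows of the other 7 lie within 83 bases of it. A match is a description of letters in these windows.

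Elovl4, Cyp4f39 and Cers3 build the hydroxylated ceramide. Elovl4, the elongase, had 24 reads in C-PC early and 14 in control early, 2 in C-PC middle and 836 in control middle, and 2869 in C-PC late and 13 in control late. Cers3, the ceramide synthase, had 7 and 6 reads in C-PC early and control early, 1 and 191 in C-PC middle and control middle, and 1225 and 0 in C-PC late and control late. Both were thus high in the keratinocyte-bearing libraries, C-PC late and control middle, and had 24 reads or fewer in the other 4. Cyp4f39, the mouse counterpart of the human omega-hydroxylase gene of this pathway, had 4 reads in C-PC early, 1 in control early, 136 in C-PC middle, 104 in control middle, 564 in C-PC late and 23 in control late. Unlike Elovl4 and Cers3, it did not drop out of C-PC middle, where its level was 7.91 CPM against 6.56 CPM in control middle.

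Pnpla1 and Abhd5 act together on the ester bond. Pnpla1, the transacylase, had 0 reads in C-PC early and 2 in control early, 1 in C-PC middle and 69 in control middle, and 1225 in C-PC late and 0 in control late. Abhd5, which also activates the main triglyceride lipase of fat and muscle, had 803 reads in C-PC early and 906 in control early, 628 in C-PC middle and 779 in control middle, and 1401 in C-PC late and 892 in control late. Its level stayed between 36.5 and 82.2 CPM, a 2.25-fold range, whereas Elovl4 stood at 168 CPM in C-PC late and at 0.116 CPM, 2 reads, in C-PC middle. An antisense gene, A730085K08Rik, overlaps Abhd5 and had at most 19 reads in any library that lists it, and Pnpla1os overlaps Pnpla1 with 5 reads in C-PC late. The kit does not mark strand, so reads of such pairs cannot be told apart.

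Abca12 and Sdr9c7 had reads in the keratinocyte-bearing libraries alone, of the 4 libraries that list them. Abca12, the lamellar body lipid transporter, had 0 reads in C-PC middle and 453 in control middle, and 1432 in C-PC late and 0 in control late. Sdr9c7, the dehydrogenase, had 0 reads in C-PC middle and 185 in control middle, and 516 in C-PC late and 0 in control late. Neither gene is listed at the early stage, where the tables leave out genes with fewer than 2 reads over both libraries. A count of 0 allows up to 3 reads by counting error, which is 0.175 CPM in C-PC middle and 0.185 CPM in control late.

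The lipoxygenase genes Alox12b and Aloxe3, neighbours on chromosome 11 with 7873 bases between them, had 82 reads or fewer in every library that lists them. Alox12b had 9 reads in C-PC middle and 77 in control middle, 27 in C-PC late and 0 in control late, and is not listed early. Aloxe3 had 5 reads in C-PC early and 5 in control early, 0 in C-PC middle and 69 in control middle, and 82 in C-PC late and 2 in control late. By CPM, Alox12b was the one member whose highest level was not in C-PC late, and under TMM scaling Abhd5 was another. Aldh3b2, of a family of dehydrogenases for long-chain aldehydes, had 21 reads in C-PC early and 25 in control early, 149 in C-PC middle and 115 in control middle, and 1377 in C-PC late and 319 in control late. It was therefore present in both muscle-rich libraries, at 8.67 CPM in C-PC middle and 19.7 CPM in control late. Its neighbour Aldh3b3, a close relative with 224 bases between them, had at most 5.22 CPM in any library, and reads of the pair could be split uncertainly.

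**Figure D2:**
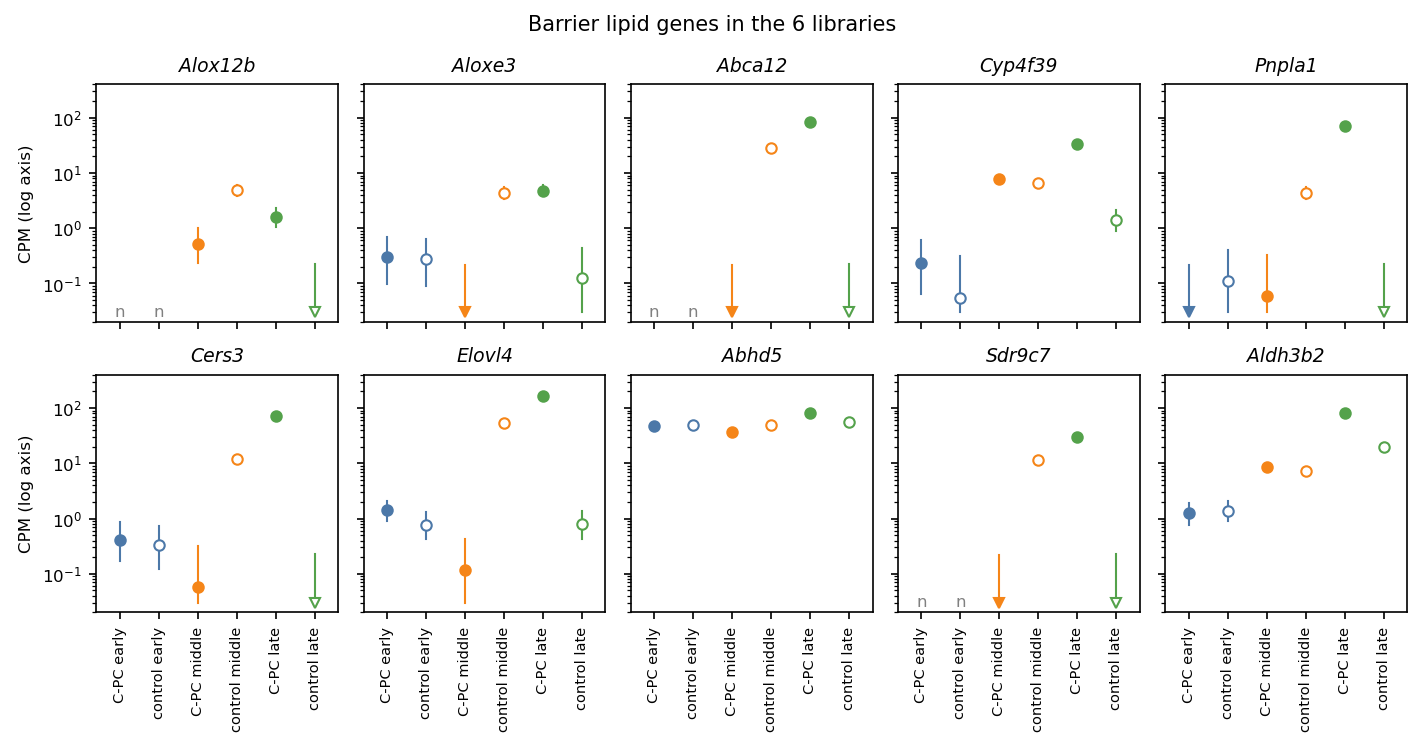
CPM (log axis) of each member in the 6 libraries, with exact 95% Poisson intervals; filled points are C-PC, open points control, triangles mark 0 reads and n a gene not listed, and bars that reach below 0.03 CPM are drawn to 0.03. Abhd5 stayed between 36.5 and 82.2 CPM, and Elovl4 reached 168 CPM in C-PC late.

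Across the 6 libraries, each member's log2(CPM + 1) was set against the mean of the other members. Pearson's r was 0.99 for Sdr9c7, 0.99 for Abca12, 0.98 for Cers3, 0.97 for Elovl4, 0.96 for Pnpla1 and 0.94 for Aloxe3. It was lower for Cyp4f39 (0.82), Alox12b (0.76), Abhd5 (0.71) and Aldh3b2 (0.69). These values describe 6 libraries, in which 2 high libraries carry most of the spread. Of 11804 other protein-coding genes that averaged 5 CPM or more, the 8 most like the members' mean were Krt77, Cnfn, Sprr2h, Dsc1, Dsg1a, Tfap2c, Ehf and Gjb6, each with r of 0.996. Dsc1 and Dsg1a are cadherins of desmosomes, and Cnfn encodes a cornified envelope protein. Dsc1 stood at 693 CPM in C-PC late and 51.5 CPM in control middle. With Spearman's rho, 0 of these 8 genes stayed among the first 8.

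C-PC was then set against the control within each stage. The ratio is that of the deposited values plus 2, on the log2 scale, with an exact 95% interval from the recovered reads that covers counting error alone. This scale understates the change of genes with few reads. A gene that reached 10 reads in either library was called apart when it was at least 2-fold different and its interval excluded equality. Each side is 1 library, so a call separates 2 libraries, and the difference has no replicate check.

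At the early stage the members were close in both libraries, and all but Abhd5 were scarce, as were basal and suprabasal keratinocyte markers. The 3 members with enough reads to compare were Elovl4 at 0.81 (95% interval -0.10 to 1.73), Abhd5 at -0.05 (-0.19 to 0.09) and Aldh3b2 at -0.12 (-0.95 to 0.70). None of the 3 was called apart, while 9.78% of 16589 genes were called in either direction, 2.92% higher and 6.85% lower. Without Abhd5 and Aldh3b2, the members summed to 2.38 CPM in C-PC early and 1.55 CPM in control early, with overlapping intervals of 1.70 to 3.24 and 1.03 to 2.24 CPM. The early pair differed in some markers. Of those compared, 2 of 5 basal, 1 of 2 suprabasal, 0 of 2 granular and 2 of 2 wound-edge keratinocyte markers were higher with C-PC. The 1 hair follicle marker compared was also higher, while 4 of 5 muscle and 2 of 6 adipocyte markers were lower. Their part in the early ratios was not tested.

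At the middle stage 7 of the 10 members were lower in the C-PC library and 3 were not apart, against 28.1% of all 17076 genes called lower and 51.7% called in either direction. The median log2 ratio of the members was -4.61, or -4.18 with genes at 0 reads set to a floor of 3 reads, against -0.13 for all genes. Abca12, Sdr9c7 and Aloxe3 had 0 reads with C-PC. Abca12 was at least 112-fold lower, Sdr9c7 at least 45.8-fold and Aloxe3 at least 17.1-fold. Elovl4 gave -7.38 (-8.31 to -6.12), Cers3 -5.71 (-6.37 to -4.28), Pnpla1 -4.28 (-4.94 to -2.80) and Alox12b -2.46 (-3.40 to -1.57). The 3 others differed by less than 2-fold. Cyp4f39 gave 0.80 (0.43 to 1.18), Aldh3b2 0.79 (0.44 to 1.15) and Abhd5 0.12 (-0.04 to 0.27). Scaling by total reads turned Abhd5 to -0.43 and moved the median of all genes to -0.66 and the share of genes called lower to 40.1%. All 10 granular keratinocyte markers, all 7 suprabasal and all 6 basal markers were lower in the same library. So were all 6 hair follicle markers compared and all 4 wound-edge keratinocyte markers (Krt6a, Krt6b, Krt16 and Krt17). Sebaceous gland markers went both ways, 2 higher and 2 lower of 4 compared. All 5 muscle markers compared and all 6 adipocyte markers were higher. Their part in the members' difference was not tested.

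At the late stage 9 of the 10 members stood higher with C-PC and Abhd5 was not apart, against 26.3% of 17073 genes called higher and 49.4% called in either direction. The median was 5.46, or 5.36 with genes at 0 reads set to the floor, against 0.15 for all genes. Abca12, Cers3, Pnpla1, Sdr9c7 and Alox12b had 0 control reads. Abca12 was at least 310-fold higher, Cers3 and Pnpla1 each at least 265-fold, Sdr9c7 at least 112-fold and Alox12b at least 5.84-fold. Elovl4 gave 6.995 (6.29 to 7.77), Aloxe3 3.92 (2.58 to 4.92), Cyp4f39 3.90 (3.33 to 4.52) and Aldh3b2 1.48 (1.31 to 1.66). Abhd5 gave 0.03 (-0.09 to 0.15). Scaling by total reads moved the median of all genes to 0.69 and the share of genes called higher to 40.4%, and 9 members were called higher there too. All 10 granular, all 7 suprabasal, all 4 wound-edge and 5 of 6 basal keratinocyte markers were higher in the same library. So were all 6 hair follicle markers compared and 4 of 5 sebaceous gland markers (47.6 CPM summed in C-PC late and 6.80 CPM in control late). All 5 muscle markers compared and all 6 adipocyte markers were lower. Their part in the difference was not tested. The authors' deposited adjusted p-values each come from 1 library against 1, so they have no replicate check and are not read here.

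**Figure D3:**
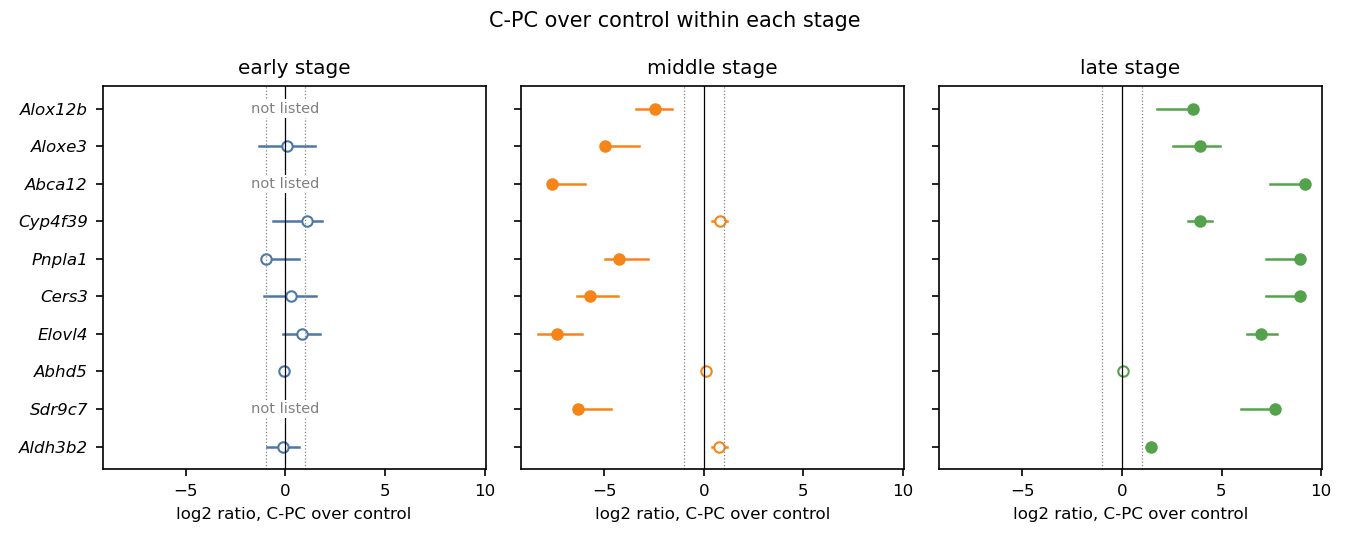
Log2 ratio of C-PC over control for each member at each stage, with exact 95% conditional binomial intervals on the same scale; filled points are called apart and dotted lines mark 2-fold. At the middle stage 7 members lie left of the lines, and at the late stage 9 lie right of them.

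Over the 3 stages together, C-PC was compared with the control by limma on log2 values with the stage as a block. Of 16591 genes tested, 0% passed an adjusted p of 0.05, and 155 had an unadjusted p under 0.05. The edgeR quasi-likelihood test on recovered reads also called 0 genes (140 unadjusted), and DESeq2 called 55 (378 unadjusted). The 7 members tested were not among the genes called by any of these tools. The fit estimates a C-PC effect shared by the 3 stages, and a ratio that reverses between stages gives it a large error. Elovl4, at 0.81 early, -7.38 at the middle stage and 6.995 late, had an estimate of 0.14 (SE 2.95). The absence of calls therefore does not speak to differences within a stage. Alox12b, Abca12 and Sdr9c7 were not tested, as the early table does not list them. The largest estimate among the members was that of Cyp4f39, 1.92 (SE 0.90).

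The keratinocyte-bearing libraries, C-PC late and control middle, show how the members differ among themselves. These libraries differ in both stage and treatment, which cannot be told apart, and in other cell type markers. Hair follicle markers were 596 times higher in C-PC late than in control middle. Adipocyte markers were 12.5 times higher, at 1174 CPM in C-PC late and 94.1 CPM in control middle. Sebaceous gland markers were 7.87 times higher, at 47.6 CPM in C-PC late and 6.05 CPM in control middle, and muscle markers had a ratio of 0.18. Wound-edge keratinocyte markers were 1.60 times higher in sum but went both ways. Reads in C-PC late and control middle were 2473 and 4455 for Krt6a, 126 and 5203 for Krt6b, 479 and 4356 for Krt16 and 24543 and 2096 for Krt17. The part of these markers in the members' differences was not tested, and the comparison was chosen after their values were seen. Pnpla1 stood at 71.9 CPM in C-PC late and 4.35 CPM in control middle, 16.5 times higher by CPM (95% counting interval 13.0 to 21.4). Aldh3b2 was 11.2 times higher (9.21 to 13.6), Cers3 5.97 times (5.12 to 6.99) and Cyp4f39 5.05 times (4.09 to 6.29). Elovl4, Abca12 and Sdr9c7 were 3.20, 2.94 and 2.60 times higher. The summed granular markers were 3.57 times higher, the basal 2.21 times and the suprabasal 1.94 times. Within each of these lists single markers went both ways. Reads in C-PC late and control middle were 440 and 812 for Flg, 3487 and 7169 for Krt1 and 8477 and 13548 for Krt14. They were 2701 and 136 for Ivl, 11796 and 817 for Dsc1 and 8701 and 96 for Krt15. These markers were picked after their values were seen. Abhd5 was 1.67 times higher (1.53 to 1.83). Aloxe3 had a ratio of 1.11 (0.79 to 1.55), an interval that includes equality. Alox12b alone of the 10 was lower in C-PC late, at 1.59 CPM against 4.85 CPM in control middle, a ratio of 0.33 (0.20 to 0.51).

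Other lipoxygenase genes went both ways between these libraries. Alox8 stood at 98.6 CPM in C-PC late and 0.441 CPM in control middle, Alox12 at 43.2 CPM in C-PC late and 9.33 CPM in control middle, and Alox12e at 19.8 CPM in C-PC late and 1.07 CPM in control middle. Alox5, a leukocyte enzyme of leukotriene synthesis, was lower in C-PC late, at 5.34 CPM against 27.4 CPM in control middle.

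Per kilobase of gene length, as the tables give it, the order of the members also differed between these libraries. In C-PC late, Elovl4 led at 55.7 RPKM (CPM divided by the length in kilobases), followed by Aldh3b2 at 37.8, Cers3 at 22.1, Cyp4f39 at 20.7, Pnpla1 at 14.9, Abhd5 at 13.8, Sdr9c7 at 9.97 and Abca12 at 5.68 RPKM. Aloxe3 and Alox12b came last, at 0.753 and 0.652 RPKM. The counting intervals of 3 pairs of neighbours overlapped, Cers3 with Cyp4f39, Pnpla1 with Abhd5 and Aloxe3 with Alox12b. In control middle Elovl4 also led, at 17.4 RPKM, followed by Abhd5 at 8.24 RPKM. Cyp4f39, Sdr9c7, Cers3 and Aldh3b2 lay between 4.10 and 3.39 RPKM, with overlapping intervals between neighbours. Alox12b at 2.00 RPKM came next and overlapped Abca12 at 1.93 RPKM, and Pnpla1 at 0.899 RPKM overlapped Aloxe3 at 0.680 RPKM.

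**Figure D4:**
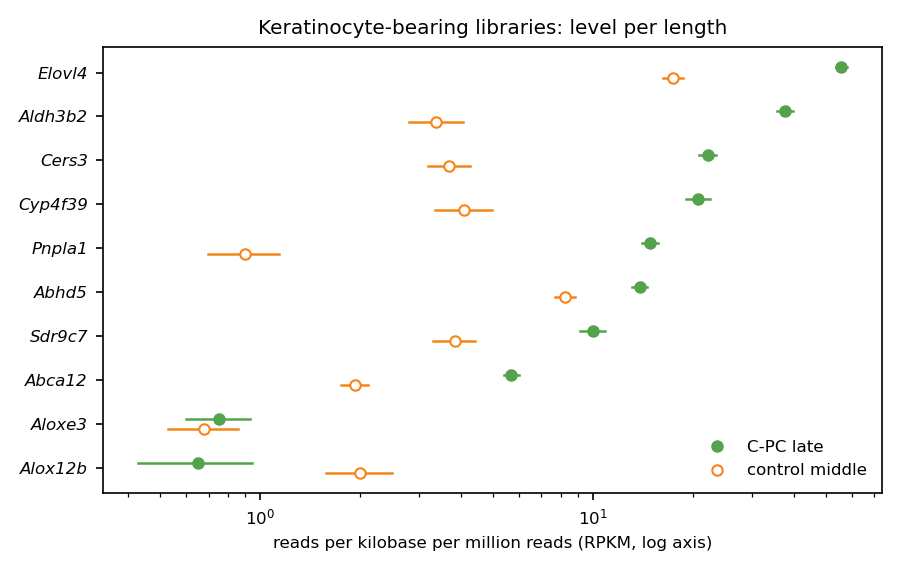
RPKM (log axis) of each member in C-PC late (filled) and control middle (open), with exact 95% Poisson intervals, ordered by C-PC late. Pnpla1 lies 16.5 times apart, Aloxe3 overlaps, and Alox12b is lower in C-PC late.

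Set against keratinocyte markers, the members' sum depended on the layer chosen. Without Abhd5 and Aldh3b2, the members summed to 384 CPM per 1000 CPM of granular markers in C-PC late and 368 in control middle. Against suprabasal markers the values were 212 per 1000 in C-PC late and 110 in control middle. Against basal markers they were 155 in C-PC late and 92.0 in control middle. The make-up of the granular list differed between these libraries, and its 2 values depend on that. Tgm3 held 5252 of the 20686 granular reads in C-PC late and 178 of 5391 in control middle. Flg held 440 in C-PC late and 812 in control middle (genes named after their values were seen). Early, the members reached 23.0 per 1000 CPM of granular markers in C-PC early and 20.5 in control early, although these denominators were mostly Asprv1.

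The muscle-rich libraries, C-PC middle and control late, had 13 reads or fewer of 7 members but more of Cyp4f39, Aldh3b2 and Abhd5. Cyp4f39 was 5.57 times higher in C-PC middle than in control late (3.56 to 9.08 by CPM), at 7.91 against 1.42 CPM. Aldh3b2 had the opposite order, at 8.67 CPM in C-PC middle and 19.7 CPM in control late, a ratio of 0.44 (0.36 to 0.54). Sebaceous gland markers summed to 5.99 CPM in C-PC middle and 6.80 CPM in control late. They summed to 0.713 CPM in C-PC early and 0.887 CPM in control early. Of the marker reads, Mc5r held 76 of 103 in C-PC middle and 63 of 110 in control late. Awat1 had 0 reads in both (genes named after their values were seen). Adipocyte markers summed to 2577 CPM in C-PC middle and 3519 CPM in control late, their highest sums in any library. The part of these markers in the members' levels was not tested.

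Other genes of barrier lipid metabolism were taken from lists of the pathway. Calls and medians use the deposited scaling, while CPM are scaled to total reads, so they can differ in size, and for small differences in direction. Of all genes, 23.6% were called higher and 28.1% lower at the middle stage and 26.3% higher and 23.1% lower late, and nothing is read about a list whose share lies near these. Of 17 genes of ceramide synthesis, 16 were compared at the middle stage, where 8 were lower and 2 higher with C-PC (median -0.93). Late, 7 were higher and 2 lower (median 0.82). The list summed to 827 CPM in C-PC early and 772 CPM in control early, although keratinocyte markers were scarce there. It summed to 348 CPM in C-PC middle, 784 CPM in control middle, 759 CPM in C-PC late and 428 CPM in control late. Cers2, which makes ceramides in most tissues, stood at 42.5 CPM in C-PC middle and 129 CPM in control middle, and at 37.7 CPM in C-PC late and 65.8 CPM in control late. Degs1, the ceramide desaturase, stood at 39.0 CPM in C-PC middle and 148 CPM in control middle, and at 75.4 CPM in C-PC late and 63.3 CPM in control late. Unlike Cers3, neither was highest in C-PC late. Ormdl3, of a family that restrains sphingolipid synthesis, stood at 74.4 CPM in C-PC middle and 43.2 CPM in control middle, and at 94.9 CPM in C-PC late and 105 CPM in control late. Sptlc2, of the enzyme that starts sphingolipid synthesis, stood at 26.5 CPM in C-PC middle and 138 CPM in control middle, and at 77.1 CPM in C-PC late and 24.8 CPM in control late.

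In the elongation and activation of fatty acids, at the middle stage 4 were higher and 4 lower with C-PC of 13 compared (median -0.44), and late 5 were higher and 3 lower (median 0.14). Acsl1, an acyl-CoA synthetase, stood at 545 CPM in C-PC middle and 81.6 CPM in control middle, and at 166 CPM in C-PC late and 706 CPM in control late. Tecr, the last enzyme of the elongation cycle, stood at 406 CPM in C-PC middle and 78.9 CPM in control middle, and at 163 CPM in C-PC late and 402 CPM in control late. Hsd17b12, the ketoreductase of that cycle, stood at 53.7 CPM in C-PC middle and 71.0 CPM in control middle, and at 126 CPM in C-PC late and 109.8 CPM in control late. Elovl5, an elongase of polyunsaturated fatty acids, stood at 52.8 CPM in C-PC middle and 110.1 CPM in control middle, and at 88.9 CPM in C-PC late and 55.1 CPM in control late. Genes of acylglycerol synthesis and lipases fell into 2 sets. At the middle stage 6 were higher and 3 lower of 9 (median 1.79), and late 2 were higher and 6 lower of 8 (median -2.03). The same 6, Lpl, Dgat1, Dgat2, Pnpla2, Mgll and Lipe, stood higher in C-PC middle and lower in C-PC late than in their controls, while Lipk, Lipm and Lipn were lower at the middle stage and Lipk and Lipm higher late, as the members were. Dgat1, Lipe, Lipk, Lipm and Lipn were named after their values were seen. Pnpla2, the triglyceride lipase that Abhd5 activates, stood at 533 CPM in C-PC middle and 90.6 CPM in control middle, and at 149 CPM in C-PC late and 750 CPM in control late. Lpl, lipoprotein lipase, stood at 1614 CPM in C-PC middle and 398 CPM in control middle, and at 624 CPM in C-PC late and 2827 CPM in control late. Dgat2, which makes triglyceride, stood at 441 CPM in C-PC middle and 40.3 CPM in control middle, and at 210.0 CPM in C-PC late and 1113 CPM in control late. Mgll, which cleaves monoglyceride, stood at 272 CPM in C-PC middle and 115 CPM in control middle, and at 274 CPM in C-PC late and 543 CPM in control late. Lipm stood at 71.9 CPM in C-PC late and 6.49 CPM in control middle, with 0 reads in C-PC middle and control late.

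Barrier lipid processing genes were mostly lower with C-PC at the middle stage, 10 lower and 2 higher of 14 (median -2.08), and late 6 were higher and 2 lower (median 0.81). Their sum was highest in C-PC early, at 5320 CPM, and was 3614 CPM in control early. It was 1333 CPM in C-PC middle, 4261 CPM in control middle, 1532 CPM in C-PC late and 1276 CPM in control late. Psap held 78205 of the 89561 reads in C-PC early. Psap, the precursor of saposins, stood at 1033 CPM in C-PC middle and 3519 CPM in control middle, and at 786 CPM in C-PC late and 995 CPM in control late. Ugcg, glucosylceramide synthase, stood at 19.1 CPM in C-PC middle and 258 CPM in control middle, and at 85.4 CPM in C-PC late and 22.4 CPM in control late. Asah1, acid ceramidase, stood at 28.5 CPM in C-PC middle and 151 CPM in control middle, and at 53.1 CPM in C-PC late and 31.8 CPM in control late. Smpd1, acid sphingomyelinase, stood at 96.3 CPM in C-PC middle and 44.4 CPM in control middle, and at 135 CPM in C-PC late and 98.2 CPM in control late. Smpd1 was thus an exception among these 4 at the middle stage. Nipal4, an ichthyosis gene named after its value was seen, stood at 54.7 CPM in C-PC late and 6.87 CPM in control middle. Of lamellar body and desquamation genes, 5 of 8 were lower at the middle stage (median -3.66, at the floor -3.24) and 5 of 7 higher late (median 6.31, at the floor 5.39). The sum of this list was also highest in C-PC early, at 1730 CPM, where Ctsd held 28064 of 29122 reads. Cdsn, which encodes corneodesmosin, stood at 0.116 CPM in C-PC middle and 29.4 CPM in control middle, and at 281 CPM in C-PC late and 0.185 CPM in control late. The desquamation protease gene Klk7 stood at 140.5 CPM in C-PC late and 43.2 CPM in control middle, with 0 reads in C-PC middle and control late. Ctsd, cathepsin D, stood at 435 CPM in C-PC middle and 949 CPM in control middle, and at 513 CPM in C-PC late and 501 CPM in control late. Vipas39, a trafficking gene, stood at 16.002 CPM in C-PC middle and 43.4 CPM in control middle, and at 63.0 CPM in C-PC late and 15.3 CPM in control late. Of 12 differentiation transcription factors, 7 were lower and 3 higher at the middle stage (median -1.67), and 7 were higher and 2 lower late (median 4.08). Klf4, a barrier regulator, stood at 34.0 CPM in C-PC middle and 150 CPM in control middle, and at 208 CPM in C-PC late and 38.1 CPM in control late. The more abundant Cebpa had the opposite order. By the deposited scaling, Rxra was called higher with C-PC in the middle pair (log2 ratio 1.19) and was not apart in the late pair (-0.86). Cebpa stood at 187 CPM in C-PC middle and 113 CPM in control middle, and at 218 CPM in C-PC late and 417 CPM in control late. Rxra, the partner of nuclear lipid receptors, stood at 228 CPM in C-PC middle and 145 CPM in control middle, and at 228 CPM in C-PC late and 283 CPM in control late. Cebpb stood at 90.9 CPM in C-PC middle and 187 CPM in control middle, and at 168 CPM in C-PC late and 76.2 CPM in control late. Early, 1 of 56 pathway genes compared was called apart, against 9.78% of all 16589 genes compared. It was Fa2h, higher with C-PC, with 35 reads in C-PC early and 3 in control early (named after its value was seen).

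Relatives of the members by family went different ways. Of the other Cyp4f genes, 0 of 4 were higher and 1 lower at the middle stage (median -0.65), and 0 of 5 higher and 1 lower late (median -0.51). Cyp4f18, a leukocyte enzyme, stood at 94.8 CPM in C-PC early and 133 CPM in control early, at 0.407 CPM in C-PC middle and 25.8 CPM in control middle, and at 0.528 CPM in C-PC late and 1.24 CPM in control late. Cyp4f13, Cyp4f16 and Cyp4f17 lay between 2.22 and 28.7 CPM in the 6 libraries. Of 4 other Aldh3 genes, 0 were higher and 2 lower at the middle stage (median -1.14) and 2 were higher late (median 1.81). Aldh3a2, the fatty aldehyde dehydrogenase, lay between 30.02 and 55.5 CPM in the 6 libraries. Of other Pnpla genes, both compared at the middle stage were higher with C-PC (median 4.09), and late 1 was higher and 2 lower of 3 (median -2.41). Of the other lipoxygenases, 2 of 4 were lower at the middle stage (median -1.23) and 3 of 5 higher late (median 2.83).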

How the data were processed

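RNA was sequenced from 6 mouse skin samples. Libraries were built from total RNA, per the labels' protocols, with the NEBNext Ultra RNA kit, which leaves strand unmarked. As for the aligner and counting tool, these were not given in the sources used here. Human is the organism of the build hg38 that the submitters' processing notes name, whereas the genes listed are those of mouse. In all, 26632 of 26644 genes have a GENCODE M21 (GRCm38) identifier, and 97.1% of these have the same coordinates there.

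The authors deposited 3 tables, 1 per stage, whose values are a signal, read counts scaled so that both libraries of a stage share 1 size. Per the file headers the tables also hold log2 ratios made by the authors, each with a p-value before and after adjustment. Each value is a step times a whole number plus a small constant, and 100% of the values above 0 in each library gave whole reads within 0.1 read. Counting intervals and floors of 3 reads cover counting error only. A gene needed 2 reads over its pair of libraries to be listed. CPM and RPKM were computed from recovered reads.

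Because the values are scaled, limma 3.58.1 on log2(value + 2) with the stage as a block was used, with edgeR 4.0.16 and DESeq2 1.42.0 on recovered reads as alternatives. Testing covered the 16591 genes kept by filterByExpr of edgeR, and p-values were adjusted by Benjamini-Hochberg. The labels do not say whether samples came from separate animals. With 1 library per group, the residual spread in this fit is the change of the C-PC ratio between stages. It does not measure a spread between replicates, biological or technical. The fit was tested on simulated data. Members and lists were chosen with earlier results of these data known. The genes named are all members, the 8 genes most like them, and up to 4 genes per list with the highest mean CPM, with exceptions marked in the text.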

Additional observations from a re-analysis of the deposited data

Results flagged for a closer look

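The C-PC ratio of 7 members pointed in opposite directions at the middle and the late stage, lower in the C-PC library at the middle stage and higher at the late stage. With 1 library per group the difference between the stages was not tested. On the log2 scale, the late ratio minus the middle ratio was 6.03 for Alox12b, 8.86 for Aloxe3, 16.79 for Abca12, 13.23 for Pnpla1, 14.66 for Cers3, 14.38 for Elovl4 and 14.04 for Sdr9c7. The pseudocount of 2 sets the size of these differences, since 6 of the 7 have a library at 0 reads. For Abca12 the value was 20.8 with a pseudocount of 0.5 and 12.2 with 10, and for Alox12b it was 8.08 and 3.57. Abca12 and Sdr9c7 had a library at 0 reads at both stages, and with these at 3 reads the differences were at least 15.1 and 12.3. Of 15855 genes compared at both stages, 13.7% were likewise called lower at the middle stage and higher late, and 15.9% the other way round. Keratinocyte markers changed direction between the same pairs, and their part was not tested.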

How the results depend on the processing

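The counts of members called kept to 0 early, 7 lower at the middle stage and 9 higher late under scaling by total reads, DESeq2 size factors, pseudocounts of 0.5 and 10 and no filter on low reads. With at least 50 reads required, 8 were higher late. Of 108 member ratios recomputed with another scaling or pseudocount, 63 stayed within their counting interval, 45 moved beyond it, and 1 changed sign, that of Abhd5 at the middle stage, which was not called. Over all genes, the early count of higher genes moved to 282 with a pseudocount of 10 and to 174 with at least 50 reads, and that of lower genes to 588 with at least 50 reads. Scaling by total reads gave 2686 higher genes at the middle stage (28.2% of calls, against 45.7%) and 6899 late (72.2%, against 53.2%). Over the stages, DESeq2 called 55 genes where limma called 0, and the cause was not tested. Leaving out each pair of libraries in turn gave 0 to 0 genes, as did the fit with no replicate block, no filter and other limma settings. Under TMM scaling 8 members, against 9, were highest in C-PC late. Of the 8 most similar genes, 5 stayed with an offset of 0.1 and 0 by Spearman's rho. Depth limits the members with few reads, among them Alox12b and Aloxe3.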
